A study of Mus musculus with 34 samples.

Results

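The Hox genes of the mouse encode homeodomain transcription factors and lie in clusters A, B, C and D. Here 38 of them, a list fixed by gene symbol and not by any measured value, were followed through 34 RNA-seq libraries of cells sorted from mouse tissues. All 38 symbols matched a gene among the 51826 gene identifiers counted per library. The study asked how transcription differs with the tissue in which a stromal cell sits. Cells were sorted into TRIZOL after tissue digestion as CD45-, CD31-, Epcam-, PDPN+ cells, and PDGFRA split them into PDGFRA- mesothelial cells, which line serous surfaces, and PDGFRA+ fibroblasts. Mesothelial cells came from the omentum, the mesentery and epididymal fat, with 3 libraries each. Fibroblasts came from the omentum, mesentery, epididymal fat, lymph node (labelled sLN), brown adipose tissue, inguinal fat and bone, with 3 libraries each, and from the pancreas and spleen, with 2 libraries each. All 34 libraries carry the label GFPneg, and neither a treatment nor strain, age or sex is given in the sources used here. The labels do not tie replicates to separate animals, and p-values therefore measure the spread between these libraries, which may in part be technical.

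Hox genes are expressed along the head-to-tail axis of the embryo in the order in which they sit on the chromosome. Low paralog numbers reach far forward and high paralog numbers, from 9 to 13, are confined to the caudal trunk, the limbs and the genital region. Adult fibroblasts are known to keep a Hox pattern that goes with the position of their tissue in the body. Hox proteins bind DNA together with the TALE homeodomain proteins of the PBX, MEIS and PKNOX families, and Polycomb and trithorax group complexes hold the clusters in silent or active states.

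The libraries held 28651435 to 42335589 counts. Between libraries, levels are given as CPM, read counts scaled to library size with TMM factors, and between genes as CPM per kb of exon. Pdgfra lay at 4.43 to 13.5 CPM in mesothelial cells, against 367 to 1420 CPM in fibroblasts, and the 13 mesothelial markers summed to 10900 to 16200 CPM in mesothelial cells, with all 13 at 1 CPM or more in every library, against at most 1010 CPM in fibroblasts. The 10 fibroblast markers, Pdgfra among them, summed to 23600 to 29900 CPM in mesothelial cells, with at least 9 at 1 CPM or more in every library of each group. In fibroblasts their sum ran from 21300 CPM in the lymph node to 177000 CPM in bone, so it did not separate the cell types. Two-sided edgeR quasi-likelihood tests were run over 25705 genes, and a gene is called changed at a Benjamini-Hochberg adjusted p under 0.05 with a log2 fold change of at least 1 in size. In sorted bulk cells, a lower fraction of expressing cells and less RNA per cell cannot be told apart.

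Of the 38 Hox genes, 27 passed the filter on low counts. The 11 that did not were Hoxa11, Hoxa13, Hoxb1, Hoxb8, Hoxb13, Hoxc12, Hoxc13, Hoxd1, Hoxd11, Hoxd12 and Hoxd13, and none of them was above 10 counts in any library. Hoxb13, Hoxc12 and Hoxd11 had no count in any of the 34 libraries. At a level of 1 CPM in every library of a group, 19 Hox genes were detected in at least 1 group and 17 did not reach 1 CPM in any library. Hoxa7 and Hoxc5 were the only genes that reached 1 CPM in all 34 libraries. The number of genes at 1 CPM in every library was highest in lymph node fibroblasts, with 14, and lowest in omentum mesothelial cells, with 7.

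**Figure D1:**
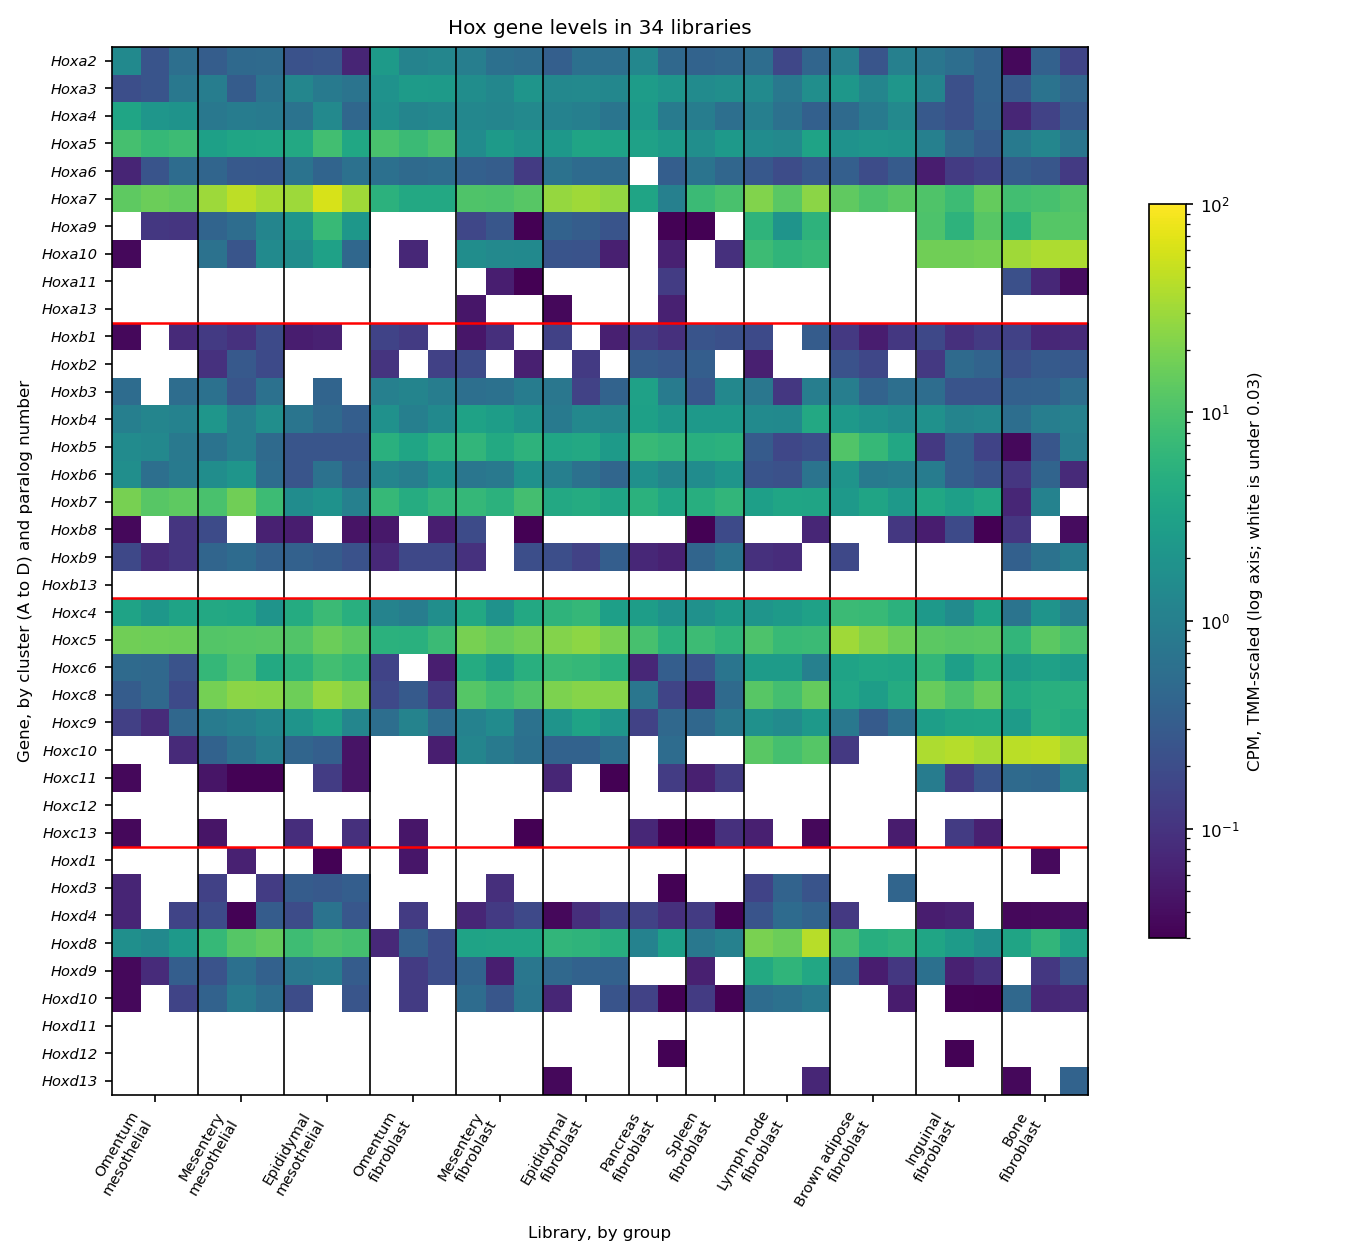
Levels of the 38 Hox genes (rows, by cluster and paralog number; red lines separate clusters) in the 34 libraries (columns, by group), as TMM-scaled CPM on a log colour scale, with levels under 0.03 CPM left white. Hoxa10 and Hoxc10 are bright in lymph node, inguinal and bone fibroblasts, while Hoxa7 and Hoxc5 are seen in every column.

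Across all 12 groups, 27 of the 38 genes changed, which is every gene tested. The background was high, since 58.8% of all genes tested were called in that comparison. Across the fibroblasts of 9 tissues 25 changed, against a background of 44%, and the genes tested but not called were Hoxb2 and Hoxb3. Across the mesothelial cells of 3 depots 14 changed, against a background of 12.3%. A gene could pass the filter through the group where it is high, so these counts describe the tested genes and not the whole list. Reads were counted without a stated strand, and Hoxb3 and Hoxb2 share 52.9% and 27.3% of their exon bases with the antisense gene Hoxb3os, Hoxa7 shares 20.4% with Hoxaas3, and Hoxd3 and Hoxd4 share 53.1% and 39.1% with the gene Gm28230 on their own strand, so the values of these genes are uncertain.

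Cluster A lies on chromosome 6 (GRCm38 chr6:52162417-52260880, minus strand, for the 10 genes followed). Among its members Hoxa7 had the highest level per kb in 8 of the 12 groups, Hoxa10 in bone and inguinal fibroblasts, and Hoxa5 in omentum and pancreas fibroblasts. Hoxa5 is known for its part in lung and axial skeleton patterning. Hoxa10 is known for its part in the caudal skeleton and the female reproductive tract. In the omentum Hoxa5 was high and Hoxa10 almost absent, while in inguinal and bone fibroblasts Hoxa10 was high and Hoxa5 low. Other groups did not all follow this contrast. Epididymal mesothelial cells had both, with 139, 274 and 167 counts of Hoxa5 and 57, 97 and 20 of Hoxa10. The promoters of Hoxa5 and Hoxa10 are shown because of the contrast between the omentum and these 2 fibroblast groups, inguinal and bone. The windows run from 250 bases before to 50 bases after the RefSeq start (GRCm38.p6), 5′ to 3′ on the gene's strand, with CG dinucleotides, the sites of DNA methylation, in capitals. Hoxa5 is chr6:52204538-52204837 and Hoxa10 is chr6:52240805-52241104, both on the minus strand.
Hoxa5: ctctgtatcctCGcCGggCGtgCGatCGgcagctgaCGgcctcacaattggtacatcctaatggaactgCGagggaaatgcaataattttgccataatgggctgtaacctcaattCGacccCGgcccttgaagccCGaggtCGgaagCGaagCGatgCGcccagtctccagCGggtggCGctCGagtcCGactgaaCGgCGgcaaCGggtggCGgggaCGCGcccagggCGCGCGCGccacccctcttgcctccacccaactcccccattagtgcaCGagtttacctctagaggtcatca
Hoxa10: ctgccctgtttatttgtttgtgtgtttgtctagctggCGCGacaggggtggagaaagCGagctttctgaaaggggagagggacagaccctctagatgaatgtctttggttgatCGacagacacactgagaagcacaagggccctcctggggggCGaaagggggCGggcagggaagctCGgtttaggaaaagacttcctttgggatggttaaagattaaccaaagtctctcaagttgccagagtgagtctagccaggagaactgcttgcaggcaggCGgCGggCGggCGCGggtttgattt
The Hoxa5 window holds 29 CG dinucleotides and the Hoxa10 window 12, against a median of 7 over 32851 windows of the same length. Of the 38 Hox genes 22 matched a window, and 18 of these were above that median. Neither window holds TGATNNAT, a core motif of PBX and Hox pairs, or TATAAA on either strand. These motifs occur in 8.8% and 13.6% of all windows, and in 3 and 3 of the 22 Hox windows. Overlaps between the motifs were not removed, and a match is a run of letters and not a bound site.

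Hoxa5 had its highest mean levels in the omentum. It had 9.23, 6.78 and 7.71 CPM in omentum mesothelial cells and 9.62, 7.61 and 9.86 CPM in omentum fibroblasts, while inguinal fibroblasts had 1.03, 0.467 and 0.308 CPM and bone fibroblasts 0.819, 1.23 and 0.711 CPM. Every omentum library was above all inguinal and bone libraries, and across the 9 fibroblast groups the fitted means of Hoxa5 spanned a log2 range of 3.88 (adjusted p = 3.4e-09).

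Hoxa7, a trunk paralog known for vertebral patterning, was present throughout. Its highest values were in mesothelial cells, with 30.6, 45.0 and 34.5 CPM in the mesentery and 30.7, 60.5 and 31.3 CPM in epididymal fat. Its lowest were in pancreas fibroblasts, with 3.38 and 1.03 CPM. Omentum fibroblasts, with 5.44, 3.95 and 4.07 CPM, were the next lowest, and every other library was at 7.49 CPM or more.

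Among fibroblasts, Hoxa9 and Hoxa10 separated 3 groups from the rest. Hoxa10 reached 31.1, 37.1 and 36.6 CPM in bone, 17.1, 17.3 and 18.3 CPM in inguinal fat and 7.87, 6.10 and 6.90 CPM in lymph node fibroblasts. Brown adipose fibroblasts had no Hoxa10 count in any of their 3 libraries, and omentum, pancreas and spleen fibroblasts stayed under 0.1 CPM. Hoxa9, a neighbour of Hoxa10 with a known part in blood progenitors and in limb and kidney development, had 5.55, 11.7 and 11.8 CPM in bone, 10.3, 5.69 and 12.1 CPM in inguinal fat and 5.96, 2.0 and 5.62 CPM in lymph node fibroblasts, and at most 0.389 CPM in any other fibroblast library. These 3 groups did not overlap with the other 6 fibroblast groups for either gene. For Hoxa9 they did overlap with epididymal mesothelial cells, where every library was at 2 CPM or more. Across fibroblasts the adjusted p was 5.03e-20 for Hoxa10 and 1.65e-15 for Hoxa9. Hoxa2, Hoxa3, Hoxa4 and Hoxa6, the genes on the other side of Hoxa5 or beside it, stayed at or under 3.52 CPM in every library. Hoxa2, known from hindbrain and branchial arch patterning, was at 1 CPM in every library of 1 group, omentum fibroblasts, with 2.51, 1.12 and 1.23 CPM. Its call across fibroblasts was lost without omentum fibroblast replicate 1 (adjusted p = 0.0563).

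**Figure D2:**
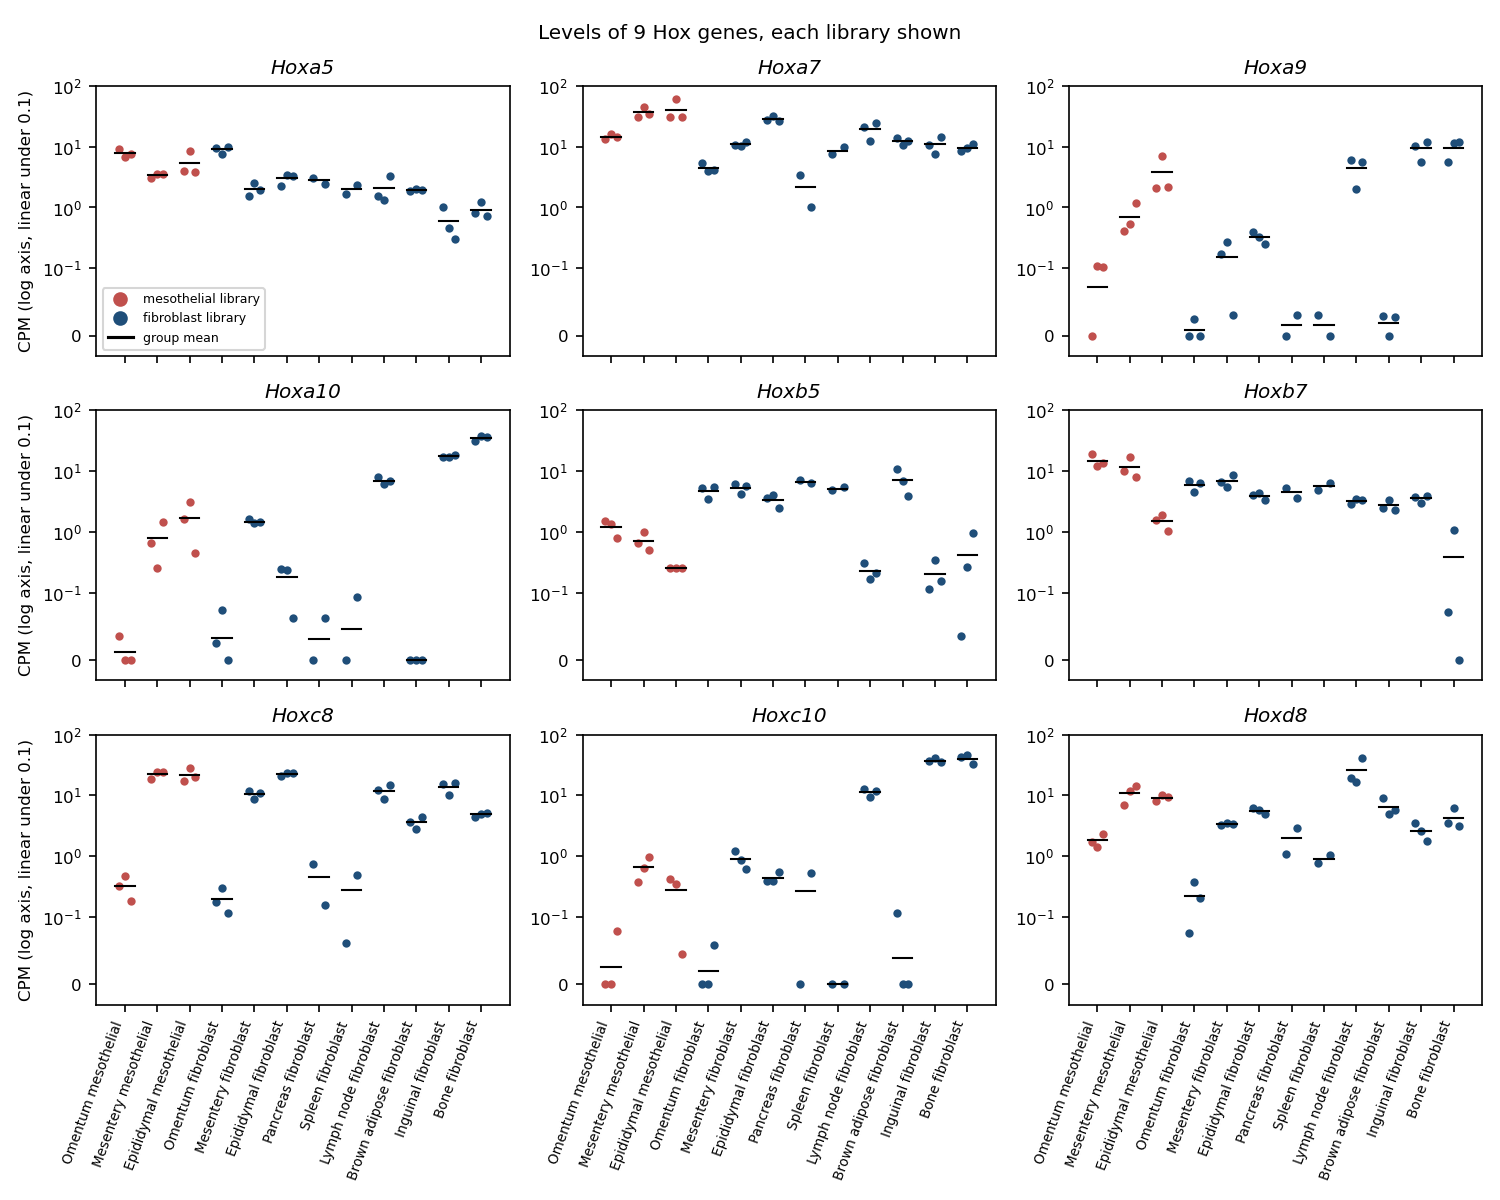
Levels of 9 Hox genes in each library (points) with group means (lines), in CPM on a log axis that is linear under 0.1. Red points are mesothelial and blue points fibroblast libraries. Among fibroblasts, Hoxa9, Hoxa10 and Hoxc10 are highest in the lymph node, inguinal fat and bone, and Hoxb5 is lower in mesothelial cells than in fibroblasts of the omentum, mesentery and epididymal fat.

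Cluster B, on chromosome 11 (GRCm38 chr11:96194316-96368256, plus strand), was led per kb by Hoxb7 in 10 of 12 groups, by Hoxb5 in brown adipose fibroblasts and by Hoxb4 in bone fibroblasts, where no cluster B gene reached 1 CPM in all 3 libraries. Hoxb7 had 18.9, 12.1 and 13.5 CPM in omentum and 9.86, 17.1 and 7.88 CPM in mesentery mesothelial cells, while epididymal mesothelial cells had 1.54, 1.87 and 1.03 CPM. Bone fibroblasts had 0.0712, 1.08 and 0 CPM, below all other fibroblast libraries. Across fibroblasts the adjusted p of Hoxb7 was 3.25e-06.

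Hoxb5, known for its part in vagal neural crest and in the development of gut and lung, split the fibroblasts into a high and a low set. It was at 2.50 CPM or more in every fibroblast library of the omentum, mesentery, epididymal fat, pancreas, spleen and brown adipose tissue, with a top value of 11 CPM in a brown adipose library. Inguinal fibroblasts had 0.115, 0.342 and 0.154 CPM, lymph node fibroblasts 0.307, 0.169 and 0.213 CPM and bone fibroblasts 0.0356, 0.26 and 0.948 CPM. The sets did not overlap (adjusted p = 5.21e-12 across fibroblasts). The fibroblast groups at which Hoxb5 was low were those at which Hoxa9, Hoxa10 and Hoxc10 were high. Hoxb4 and Hoxb6 stayed between 0.079 and 4.02 CPM in all 34 libraries. Hoxb9, the most posterior tested gene of the cluster, stayed under 1 CPM in every library and had no count in the 3 inguinal libraries.

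Cluster C, on chromosome 15 (GRCm38 chr15:102921103-103036852, plus strand), had its highest shares of the summed Hox level per kb in 3 groups, with 66.8 ± 2.61% in inguinal, 59.7 ± 3.81% in bone and 50.5 ± 0.561% in epididymal fibroblasts (SD, n = 3 each). It was led by Hoxc10 in bone, inguinal and lymph node fibroblasts, by Hoxc8 in epididymal fibroblasts and in mesothelial cells of the mesentery and epididymal fat, and by Hoxc5 in the other 6 groups. Hoxc10, known for lumbar and hindlimb patterning, had 42.6, 45.4 and 32.8 CPM in bone, 36.4, 40.4 and 34.8 CPM in inguinal fat and 12.5, 9.23 and 11.9 CPM in lymph node fibroblasts. No other library was above 1.21 CPM, and the spleen libraries had no count (adjusted p = 8.87e-22 across fibroblasts).

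Hoxc8, a trunk gene known from thoracic vertebral patterning, had another distribution. It reached 18.6, 24.5 and 23.9 CPM in mesentery and 16.9, 27.7 and 20.2 CPM in epididymal mesothelial cells, against 0.317, 0.468 and 0.184 CPM in omentum mesothelial cells. Fibroblasts of epididymal fat had 20.5, 22.9 and 23.1 CPM and those of the mesentery 11.7, 8.70 and 10.9 CPM, while omentum fibroblasts had 0.177, 0.298 and 0.117 CPM, pancreas fibroblasts 0.735 and 0.156 CPM and spleen fibroblasts 0.0609 and 0.496 CPM. The omentum, pancreas and spleen libraries all lay below every library of the other 6 fibroblast tissues (adjusted p = 2.79e-16 across fibroblasts). Hoxc6, its neighbour, had the same low groups, with at most 0.713 CPM in omentum, pancreas and spleen libraries, omentum mesothelial cells included, and at least 1.03 CPM elsewhere. Hoxc5 lay between 5.12 and 31.9 CPM in all libraries, with the highest value in brown adipose tissue. Its annotated exons share 166 bases, 5.4% of its exon length, with Hoxc10. In brown adipose tissue Hoxc5 had 31.9, 21.9 and 16.6 CPM and Hoxc10 had 0.115, 0 and 0 CPM. The part of the shared bases in the Hoxc5 counts was not tested.

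Cluster D, on chromosome 2 (GRCm38 chr2:74668310-74765142, plus strand), was led by Hoxd8 in all 12 groups. Hoxd8 and Hoxd9 are the members that set lymph node fibroblasts apart, and their promoter windows are shown for that reason, again with CG dinucleotides in capitals. Hoxd8 is chr2:74704365-74704664 and Hoxd9 is chr2:74697513-74697812, both on the plus strand.
Hoxd8: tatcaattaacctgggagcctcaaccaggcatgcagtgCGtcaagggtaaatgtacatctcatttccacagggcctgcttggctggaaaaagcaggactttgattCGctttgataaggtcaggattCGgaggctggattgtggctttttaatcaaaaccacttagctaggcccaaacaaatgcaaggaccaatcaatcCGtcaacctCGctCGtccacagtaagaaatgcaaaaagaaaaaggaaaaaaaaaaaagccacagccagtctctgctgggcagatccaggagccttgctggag
Hoxd9: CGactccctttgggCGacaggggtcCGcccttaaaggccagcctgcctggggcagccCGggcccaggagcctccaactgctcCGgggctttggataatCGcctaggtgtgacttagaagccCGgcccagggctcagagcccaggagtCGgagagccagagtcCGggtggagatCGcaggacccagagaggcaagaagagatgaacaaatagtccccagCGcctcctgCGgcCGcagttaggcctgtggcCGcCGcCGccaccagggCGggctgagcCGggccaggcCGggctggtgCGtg
The Hoxd8 window holds 6 CG dinucleotides, below the median of 7 over all windows, and the Hoxd9 window holds 20. Neither holds TGATNNAT or TATAAA. Hoxd8 had 19.3, 16.3 and 41.7 CPM in lymph node fibroblasts, above every other library, of which the next was at 14.4 CPM in mesentery mesothelial cells. Omentum fibroblasts were lowest, with 0.076, 0.373 and 0.205 CPM. Hoxd9, known for lumbosacral and limb patterning, had 4.15, 6.04 and 3.91 CPM in lymph node fibroblasts and stayed under 1 CPM in all other libraries. Across fibroblasts the adjusted p was 5.56e-13 for Hoxd8 and 1.06e-11 for Hoxd9. Hoxd10 stayed under 1 CPM throughout. Hoxd3 and Hoxd4 did too, and their calls across fibroblasts were lost without lymph node fibroblast replicate 2 (adjusted p = 0.0734 and 0.176), that of Hoxd4 also without lymph node fibroblast replicate 3 (adjusted p = 0.06).

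Set side by side, paralogs 9 to 13 made up 72.9 ± 3.21% of the summed Hox level per kb in bone fibroblasts, 57.4 ± 5.13% in inguinal fibroblasts and 29.0 ± 4.63% in lymph node fibroblasts (SD, n = 3 each). In all other groups the mean share was at most 6.32%, the value of mesentery fibroblasts, and it was lowest in omentum mesothelial cells, with 0.972 ± 0.783%. The single libraries of bone ran from 70.6 to 76.6%, of inguinal fat from 54.4 to 63.3% and of the lymph node from 23.7 to 32.5%, so these groups did not overlap. The summed level itself was 49.6 ± 6.05 CPM per kb in bone and 49.4 ± 3.08 CPM per kb in inguinal fibroblasts. It was lowest in pancreas and spleen fibroblasts, at 16.8 ± 3.82 and 17.7 ± 1.87 CPM per kb (SD, n = 2 each).

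**Figure D3:**
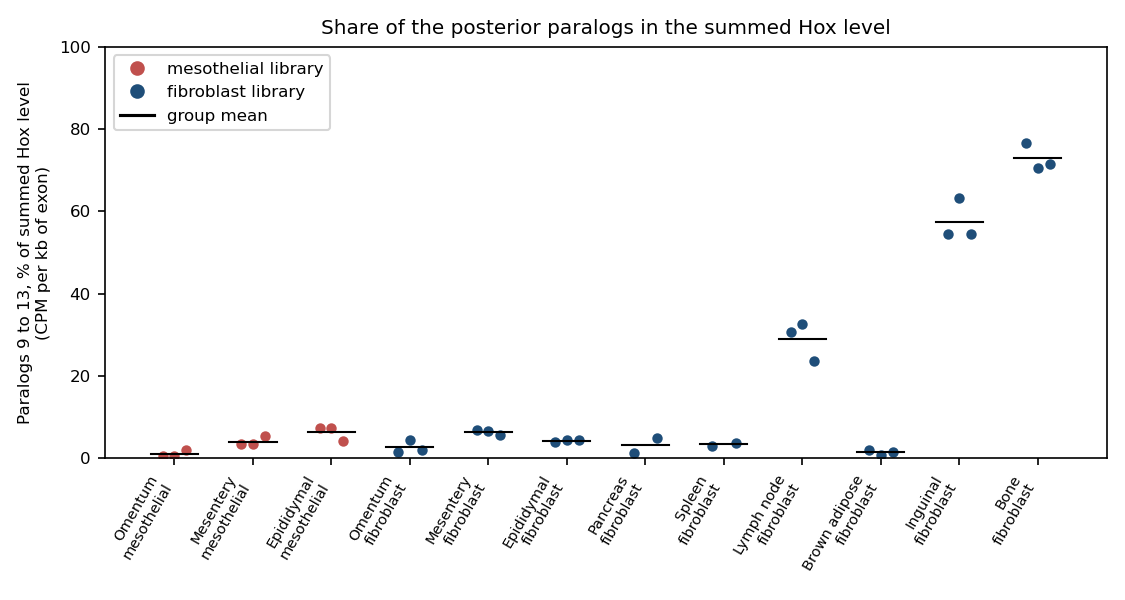
Share of paralogs 9 to 13 in the summed Hox level (CPM per kb of exon), in percent, for each library (points; red mesothelial, blue fibroblast) with group means (lines). Bone, inguinal and lymph node fibroblasts average 72.9, 57.4 and 29.0%, and every other group at most 6.32%.

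Inguinal fat and brown adipose tissue both carry the region label subq_fat, and their fibroblasts were compared with each other. Of the 38 Hox genes 6 rose and 1 fell in inguinal fibroblasts, while only 0.704% of all genes tested were called in that comparison (0.268% higher and 0.436% lower). Hoxa10 had 17.1, 17.3 and 18.3 CPM in inguinal fibroblasts and 0 in the 3 brown adipose libraries, which is at least 620-fold higher when the brown adipose group is set to the floor of 3 counts over its libraries (adjusted p = 1.69e-11). Hoxa9 had 932 counts in inguinal and 2 in brown adipose fibroblasts, a ratio of 497 with a 95% exact counting interval from 137 to 4110 (adjusted p = 2.38e-08). Hoxc10 rose by 9.81 ± 0.64 on the log2 scale (SE, adjusted p = 2.79e-13), Hoxc9 by 2.54 ± 0.45 (adjusted p = 0.00115) and Hoxc8 by 1.92 ± 0.29 (adjusted p = 0.000136). Hoxc9 had 2.79, 3.39 and 3.58 CPM in inguinal fibroblasts and 0.776, 0.311 and 0.585 CPM in brown adipose fibroblasts. Hoxb5 fell by 5.14 ± 0.51 (adjusted p = 6.17e-08), with 0.115, 0.342 and 0.154 CPM in inguinal fibroblasts and 11, 6.84 and 3.90 CPM in brown adipose fibroblasts. The libraries of the groups did not overlap for any of these 6 genes. The sixth gene that rose, Hoxc11, had 43 counts in inguinal and 1 in brown adipose fibroblasts, and its call was lost when inguinal replicate 1 (adjusted p = 0.379) or any 1 brown adipose library was left out (adjusted p = 0.0503 to 0.0794). With median-of-ratios scaling 6 genes rose and 3 fell. The 7 skeletal muscle markers summed to 1.49 to 2.95 CPM in inguinal fibroblasts, with none at 1 CPM or more in every library and Pax7 at 0 throughout, against 15.4 to 23.3 CPM and 3 such markers in brown adipose fibroblasts. Of these markers Acta1 fell by 5.73 ± 0.79 (SE, adjusted p = 1.57e-05) and Ckm by 4.35 ± 0.78 (adjusted p = 0.00312) in inguinal fibroblasts. Their part in these differences was not tested.

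Fibroblasts of epididymal fat, with the region label visceral_fat, were compared with those of inguinal fat. This comparison and the previous one share the inguinal libraries. In epididymal fibroblasts 5 Hox genes rose and 4 fell, against a background of 5.35% of genes, 2.84% higher and 2.51% lower. Hoxc10 fell by 6.37 ± 0.47 (SE, adjusted p = 1.35e-12), with 0.389, 0.386 and 0.556 CPM in epididymal and 36.4, 40.4 and 34.8 CPM in inguinal fibroblasts. Hoxa10 fell by 6.58 ± 0.54 (adjusted p = 4.04e-11) and Hoxa9 by 4.86 ± 0.57 (adjusted p = 1.02e-07). Hoxb5 rose by 4.04 ± 0.54 (adjusted p = 1.64e-06), Hoxa5 by 2.31 ± 0.42 (adjusted p = 0.000259) and Hoxa7 by 1.38 ± 0.29 (adjusted p = 0.00135). Hoxa7 had 27.7, 31.7 and 26.6 CPM in epididymal fibroblasts, against 10.6, 7.71 and 14.6 CPM in inguinal fibroblasts, with no overlap. The other called genes, Hoxa6, Hoxb9 and Hoxc11, averaged under 1 CPM in both groups and each lost its call when 1 named library was left out: Hoxa6 without inguinal replicate 1 (adjusted p = 0.13) or 2 (adjusted p = 0.0584) or epididymal replicate 1 (adjusted p = 0.0768), Hoxb9 without epididymal replicate 3 (adjusted p = 0.0506), and Hoxc11 without inguinal replicate 1 (adjusted p = 0.323) or epididymal replicate 2 (adjusted p = 0.0942) or 3 (adjusted p = 0.0696).

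Lymph node fibroblasts were compared with inguinal fibroblasts, the other group with high Hoxa9, Hoxa10 and Hoxc10. In the lymph node 6 Hox genes rose and 5 fell, against a background of 16.5%, as 8.68% higher and 7.85% lower. Hoxd8 rose by 3.29 ± 0.38 (SE, adjusted p = 2.59e-08) and Hoxd9 by 4.16 ± 0.57 (adjusted p = 2.82e-07). Hoxd9 had 4.15, 6.04 and 3.91 CPM in lymph node fibroblasts and 0.603, 0.0622 and 0.0925 CPM in inguinal fibroblasts. Hoxd10, with 62 counts in lymph node and 3 in inguinal fibroblasts, had a ratio of 21.4 (95% exact counting interval 6.98 to 106, adjusted p = 0.00047), and Hoxd4 rose by 3.14 ± 0.89 (adjusted p = 0.00604). Hoxc10 fell by 1.73 ± 0.34 (adjusted p = 0.000128) and Hoxa10 by 1.34 ± 0.35 (adjusted p = 0.00406), without overlap of libraries. Hoxa5 rose by 1.75 ± 0.44 (adjusted p = 0.0031), a call lost without lymph node replicate 3 (adjusted p = 0.0586). Hoxc6 fell by 1.25 ± 0.37 (adjusted p = 0.0109), a call lost without inguinal replicate 1 (adjusted p = 0.0822) or lymph node replicate 3 (adjusted p = 0.0922). The calls of Hoxd3, Hoxb2 and Hoxc11, all under 1 CPM on average, were also lost when 1 library was left out (adjusted p up to 0.0704, 0.0989 and 0.0578). All 7 mural cell markers were at 1 CPM or more in every lymph node library, with a sum of 975 to 1360 CPM against 16.1 to 28.4 CPM and 5 such markers in inguinal fibroblasts. The 14 leukocyte markers summed to 398 to 893 CPM in lymph node fibroblasts, with 3 at 1 CPM or more in every library, against 9.5 to 30.6 CPM and 3 such markers in inguinal fibroblasts. The part of either marker set in these differences was not tested.

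Bone fibroblasts were compared with the mean of the other 8 fibroblast tissues, so a change against that mean need not hold against each tissue. Among the genes called in bone, bone and inguinal libraries overlapped for Hoxc10, Hoxa9, Hoxc9, Hoxc6, Hoxc11, Hoxb5, Hoxb6, Hoxa3, Hoxa4, Hoxa5 and Hoxc4. In bone 7 Hox genes rose and 9 fell, against a background of 19.5%, as 12.8% higher and 6.65% lower. Hoxc10 rose by 6.94 ± 0.27 (SE, adjusted p = 1.04e-22), Hoxa10 by 7.26 ± 0.29 (adjusted p = 5.31e-22) and Hoxa9 by 6.06 ± 0.39 (adjusted p = 1.98e-15) on the log2 scale. Hoxc9, a thoracic to lumbar paralog, rose by 1.97 ± 0.28 (adjusted p = 6.18e-07), with 2.56, 5.13 and 4.42 CPM in bone. Hoxb7 fell by 3.48 ± 0.45 (adjusted p = 1.54e-07), Hoxb5 by 2.55 ± 0.45 (adjusted p = 2.61e-05), Hoxa4 by 2.43 ± 0.57 (adjusted p = 0.000915), Hoxa3 by 1.70 ± 0.43 (adjusted p = 0.00248) and Hoxa5 by 1.31 ± 0.35 (adjusted p = 0.00345). The genes that rose had paralog numbers of 6 to 11 and those that fell 2 to 7. Hoxc6, which rose by 1.11 ± 0.31 (adjusted p = 0.00524), did not reach the fold threshold without omentum replicate 2 (0.96) or pancreas replicate 1. Its counts were 72, 84 and 65 in bone, 207, 224 and 166 in epididymal and 6, 1 and 2 in omentum fibroblasts. Bone thus lay below epididymal fat and above the omentum for Hoxc6, so the rise against the mean does not hold against each tissue. The calls of Hoxc4, Hoxb4, Hoxb6 and Hoxa2 were lost without bone replicate 1 (adjusted p = 0.106, 0.119, 0.0607 and 0.198) and those of Hoxc4, Hoxb6 and Hoxa2 also without bone replicate 3 (adjusted p = 0.0612, 0.0633 and 0.117). The remaining genes that rose, Hoxb9 and Hoxc11, averaged under 1 CPM. Of 9 skeletal markers 8 were at 1 CPM or more in every bone library, with a sum of 13700 to 19600 CPM, against at most 52.1 CPM in any other fibroblast library. The 7 skeletal muscle markers summed to 333 to 4730 CPM in bone, with 5 at 1 CPM or more in every library, against at most 23.3 CPM elsewhere. The part of either marker set in these differences was not tested.

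Within the visceral depots, omentum fibroblasts stood apart from both mesentery and epididymal fibroblasts. Compared with the mesentery 1 Hox gene rose in the omentum and 9 fell (background 8.05%, as 5.64% higher and 2.4% lower), and compared with epididymal fat 2 rose and 8 fell (background 8.04%, as 5.39% higher and 2.65% lower). These comparisons share the omentum libraries. Hoxc8 fell by 5.67 ± 0.42 against the mesentery (SE, adjusted p = 1.27e-11) and by 6.76 ± 0.42 against epididymal fat (adjusted p = 2.51e-13). Hoxc6 fell by 5.61 ± 0.60 (adjusted p = 1.43e-08) against the mesentery and by 6.27 ± 0.58 (adjusted p = 6.66e-10) against epididymal fat, with 0.152, 0.0249 and 0.0585 CPM in the omentum against 4.42, 2.67 and 4.98 CPM in the mesentery and 7.33, 6.65 and 5.13 CPM in epididymal fat. Hoxd8 fell by 3.92 ± 0.54 (adjusted p = 2.79e-06) against the mesentery and by 4.65 ± 0.53 (adjusted p = 7.48e-08) against epididymal fat. Hoxa7 fell by 1.29 ± 0.30 (adjusted p = 0.00333) against the mesentery and by 2.67 ± 0.31 (adjusted p = 1.08e-07) against epididymal fat. Hoxc5 fell by 1.53 ± 0.26 (adjusted p = 5.72e-05) against the mesentery and by 1.88 ± 0.26 (adjusted p = 2.21e-06) against epididymal fat. Hoxa5 rose by 2.18 ± 0.34 (adjusted p = 2.21e-05) against the mesentery and by 1.57 ± 0.33 (adjusted p = 0.00103) against epididymal fat. Hoxa10 fell against the mesentery by 5.25 ± 0.84 (adjusted p = 1.92e-05), with 1.62, 1.37 and 1.43 CPM in mesentery libraries. The libraries did not overlap for any of these genes. Hoxc4 fell by 1.43 ± 0.40 against the mesentery (adjusted p = 0.0174), a call lost without any 1 of 4 libraries, omentum replicates 1 and 2 and mesentery replicates 1 and 3 (adjusted p = 0.0638 to 0.119), and by 2.08 ± 0.40 against epididymal fat (adjusted p = 0.000339). Hoxc9 fell by 1.75 ± 0.43 against epididymal fat (adjusted p = 0.00534), a call lost without epididymal replicate 2 (adjusted p = 0.0608). Hoxa2 rose by 1.64 ± 0.52 against epididymal fat (adjusted p = 0.0348), a call lost without omentum replicate 1 or any 1 epididymal library (adjusted p = 0.0758 to 0.208). The 12 markers of pancreatic acinar cells summed to 1170 to 3900 CPM in omentum fibroblasts and 845 to 3830 CPM in mesentery fibroblasts, with 11 at 1 CPM or more in every library of both, and to 3.16 to 3.77 CPM in epididymal fibroblasts, with 1 such marker. The 14 leukocyte markers summed to 533 to 847 CPM in omentum fibroblasts, with 10 at 1 CPM or more in every library, against 16.7 to 46 CPM and 3 such markers in mesentery fibroblasts and 35.4 to 87.6 CPM and 4 such markers in epididymal fibroblasts. The 13 mesothelial markers summed to 676 to 1010 CPM in omentum fibroblasts, with 10 at 1 CPM or more in every library, against 131 to 235 CPM and 9 such markers in mesentery fibroblasts and 191 to 287 CPM and 11 such markers in epididymal fibroblasts. The part of these 3 marker sets in the differences was not tested.

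Mesentery against epididymal fibroblasts gave 1 Hox gene that rose and 2 that fell (background 2.57%, as 1.21% higher and 1.37% lower). Hoxa10 rose in the mesentery by 3.0 ± 0.65 (SE, adjusted p = 0.00326), and Hoxa7 fell by 1.38 ± 0.29 (adjusted p = 0.00294). Hoxc8 fell by 1.08 ± 0.27 (adjusted p = 0.018), a call lost when any 1 of replicates 2 and 3 of the mesentery or of epididymal fat was left out (adjusted p = 0.0503 to 0.131). When libraries with 1000 CPM or more of acinar markers were left out, which leaves 1 mesentery library, only the call of Hoxa7 remained, with an adjusted p of 0.122 for Hoxa10 and 0.0622 for Hoxc8.

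Pancreas fibroblasts compared with mesentery fibroblasts gave no Hox gene that rose and 5 that fell (background 7.25%, as 5.21% higher and 2.04% lower). Hoxc8 fell by 4.46 ± 0.44 (adjusted p = 2.24e-08), Hoxc6 by 4.35 ± 0.61 (adjusted p = 6.08e-06) and Hoxa7 by 2.28 ± 0.37 (adjusted p = 7.78e-05) in the pancreas. Hoxa10 had 2 counts in the pancreas and 160 in the mesentery, and the mesentery was 54.0-fold higher (95% exact counting interval 14.7 to 450, adjusted p = 0.00033). Hoxc5 fell by 1.22 ± 0.29 (adjusted p = 0.00568), a call lost without pancreas replicate 2 (adjusted p = 0.16). The acinar markers summed to 40200 to 141000 CPM in pancreas fibroblasts, with all 12 at 1 CPM or more in both libraries, and their part in these differences was not tested. Spleen fibroblasts compared with the mean of omentum, mesentery, epididymal and pancreas fibroblasts gave 1 gene that rose, Hoxb9, and 1 that fell, Hoxc8 (background 2.15%, as 1.94% higher and 0.21% lower). For Hoxc8 the spleen libraries overlapped those of the omentum and pancreas and lay below those of the mesentery and epididymal fat. Hoxc8 fell by 2.96 ± 0.51 (adjusted p = 0.000256), and its adjusted p was 0.0723 without spleen replicate 1. Hoxb9 lost its call without spleen replicate 1 (adjusted p = 0.0719) or 2 (adjusted p = 0.586).

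The mesothelial cells of the omentum had low levels of Hoxc8, Hoxc6 and Hoxd8 relative to those of both other depots. Against the mesentery 2 Hox genes rose in the omentum and 9 fell (background 5.15%, as 2.36% higher and 2.79% lower), and against epididymal fat 3 rose and 9 fell (background 10.4%, as 3.55% higher and 6.83% lower). Both comparisons use the same omentum libraries. Hoxc8 fell by 6.05 ± 0.40 against epididymal fat (SE, adjusted p = 9.56e-13), beside 6.10 ± 0.40 against the mesentery (adjusted p = 2.07e-12). Hoxc6 fell by 4.15 ± 0.45 against epididymal fat (adjusted p = 4.14e-08), beside 4.13 ± 0.45 against the mesentery (adjusted p = 8.35e-08). Hoxc6 had 0.493, 0.468 and 0.237 CPM in omentum mesothelial cells, 6.72, 9.99 and 4.13 CPM in the mesentery and 5.55, 8.64 and 6.95 CPM in epididymal fat. Hoxd8 fell by 2.58 ± 0.39 against the mesentery (adjusted p = 2.52e-05) and by 2.33 ± 0.39 against epididymal fat (adjusted p = 7.46e-05). Hoxa10 had 1 count over the omentum libraries, against 81 in the mesentery and 174 in epididymal fat. The mesentery was 79.0-fold (95% exact counting interval 13.8 to 3160, adjusted p = 0.00128) and epididymal fat 162-fold higher (28.7 to 6430, adjusted p = 8.24e-06). Hoxa7 fell by 1.33 ± 0.29 (adjusted p = 0.00274) against the mesentery and by 1.48 ± 0.29 (adjusted p = 0.000541) against epididymal fat. Hoxc9 fell by 3.15 ± 0.54 against epididymal fat (adjusted p = 0.000118). Its fall of 2.17 ± 0.59 against the mesentery (adjusted p = 0.0196) was lost without mesentery replicate 3 or omentum replicate 1 or 2 (adjusted p = 0.0726 to 0.141). Hoxa9 fell by 5.52 ± 0.75 against epididymal fat (adjusted p = 2.05e-06). Its fall of 3.10 ± 0.95 against the mesentery (adjusted p = 0.0412) was no longer called without mesentery replicate 3 or any 1 omentum library (adjusted p = 0.0912 to 0.214), nor with the replicate number as a block (adjusted p = 0.0504).

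Hoxb7 differed between mesothelial depots in another way. It was 3.34 ± 0.39 higher on the log2 scale in the omentum than in epididymal fat (SE, adjusted p = 2.93e-07) and 2.99 ± 0.39 higher in the mesentery than in epididymal fat (adjusted p = 3.59e-06). Hoxb5 rose in the omentum against epididymal fat by 2.22 ± 0.56 (adjusted p = 0.00767). Hoxa4 rose in the omentum by 1.58 ± 0.41 against the mesentery (adjusted p = 0.0126) and by 1.65 ± 0.41 against epididymal fat (adjusted p = 0.00619), and Hoxa5 against the mesentery by 1.22 ± 0.33 (adjusted p = 0.0172). Without omentum replicate 1 the calls of Hoxa4 and Hoxa5 against the mesentery were lost (adjusted p = 0.0794 and 0.0618), as they were without mesentery replicate 1 (0.0585 and 0.0607), and without epididymal replicate 3 that of Hoxa4 against epididymal fat (0.0564). Mesentery against epididymal cells gave 2 Hox genes that rose, Hoxb7 and Hoxb4, and 1 that fell, Hoxa9 (background 4.18%, as 1.98% higher and 2.21% lower). The fall of Hoxa9, by 2.42 ± 0.52 (adjusted p = 0.0024), was not called without epididymal replicate 2 (adjusted p = 0.0657). The rise of Hoxb4 (adjusted p = 0.0217) was lost when any 1 of 4 libraries was left out (adjusted p = 0.0629 to 0.13). The 12 markers of pancreatic acinar cells summed to 53 to 2460 CPM in omentum, 225 to 7510 CPM in mesentery and 43.7 to 99.7 CPM in epididymal mesothelial cells, with none at 0 throughout a group. The 14 leukocyte markers summed to 636 to 787 CPM in omentum, 843 to 1860 CPM in mesentery and 104 to 254 CPM in epididymal mesothelial cells, with 3, 2 and 3 of them at 1 CPM or more in every library. The 7 mural cell markers summed to 337 to 349 CPM, 206 to 218 CPM and 569 to 669 CPM in the same order of depots, with 4, 6 and 5 at that level. The part of the leukocyte and mural markers in these differences was not tested. When libraries with 1000 CPM or more of acinar markers were left out, which leaves 2 omentum libraries and 1 mesentery library, Hoxc8, Hoxc6, Hoxd8, Hoxa10 and Hoxc10 remained called between omentum and mesentery and the other 6 genes did not.

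Mesothelial cells were then set against fibroblasts of the same depot. In the omentum 5 Hox genes rose in mesothelial cells and 3 fell (background 16.9%, as 8.1% higher and 8.79% lower), in the mesentery 4 rose and 2 fell (background 18.3%, as 10.8% higher and 7.53% lower), and in epididymal fat 4 rose and 2 fell (background 24.7%, as 16.6% higher and 8.16% lower). With 27 Hox genes tested these counts are small, and the genes are given one by one. Hoxb5 fell in mesothelial cells of all 3 depots, by 1.98 ± 0.39 in the omentum (SE, adjusted p = 0.000207), by 2.90 ± 0.42 in the mesentery (adjusted p = 1.06e-06) and by 3.72 ± 0.50 at the epididymal depot (adjusted p = 3.53e-07). It had 1.52, 1.32 and 0.79 CPM in omentum mesothelial cells against 5.22, 3.53 and 5.39 CPM in omentum fibroblasts. In the mesentery it had 0.665, 0.98 and 0.50 CPM in mesothelial cells against 6.18, 4.19 and 5.64 CPM in fibroblasts, and in epididymal fat 0.256, 0.253 and 0.251 CPM against 3.65, 3.98 and 2.50 CPM. No mesothelial library reached the level of any fibroblast library of its depot. The 14 leukocyte markers summed to 843 to 1860 CPM in mesentery mesothelial cells, with 2 at 1 CPM or more in every library, against 16.7 to 46 CPM and 3 such markers in mesentery fibroblasts, and to 636 to 787 CPM in omentum mesothelial cells against 533 to 847 CPM in omentum fibroblasts. At the epididymal depot they summed to 104 to 254 CPM in mesothelial cells, with 3 at 1 CPM or more in every library, against 35.4 to 87.6 CPM and 4 such markers in fibroblasts. The 7 mural cell markers summed to 337 to 349 CPM in omentum mesothelial cells against 186 to 262 CPM in omentum fibroblasts, to 206 to 218 CPM against 62.9 to 132 CPM for the mesentery pair, and to 569 to 669 CPM in epididymal mesothelial cells against 105 to 158 CPM in epididymal fibroblasts. The part of either marker set in these differences was not tested. The 12 acinar markers summed to 53 to 2460 CPM in omentum mesothelial cells against 1170 to 3900 CPM in omentum fibroblasts. The sums were 225 to 7510 against 845 to 3830 CPM for the mesentery pair and 43.7 to 99.7 against 3.16 to 3.77 CPM for the epididymal pair. Leaving out libraries with 1000 CPM or more of these markers leaves 1 mesentery library of each cell type, too few to decide their part.

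Hoxd8 rose in mesothelial cells of the omentum, by 3.04 ± 0.57 (SE, adjusted p = 0.00012), and of the mesentery, by 1.69 ± 0.36 (adjusted p = 0.000474). Hoxa3, known for its part in thymus and parathyroid formation, fell in the omentum by 2.43 ± 0.47 (adjusted p = 0.000182), with 0.211, 0.248 and 0.763 CPM in mesothelial cells and 1.87, 2.54 and 2.49 CPM in fibroblasts. Its fall of 1.33 ± 0.45 in the mesentery (adjusted p = 0.0305) was lost when any 1 of mesothelial replicates 2 and 3 or fibroblast replicates 1 and 3 was left out (adjusted p = 0.0613 to 0.152). Hoxc8 rose in the mesentery by 1.09 ± 0.27 (adjusted p = 0.00255), which was 0.98 when mesentery fibroblast replicate 2 was left out. Hoxa9 rose in epididymal mesothelial cells by 3.53 ± 0.60 (adjusted p = 1.26e-05), with 2.08, 7.09 and 2.19 CPM against 0.389, 0.327 and 0.247 CPM in epididymal fibroblasts. Hoxc4 rose in the omentum by 1.27 ± 0.41 (adjusted p = 0.0216) and lost its call when any 1 of 4 libraries was left out (adjusted p = 0.0613 to 0.174). Hoxc9, Hoxb9, Hoxd3 and Hoxd4, at or near 1 CPM or below, made up the rest of the calls, and each of these was lost when 1 of at least 2 libraries was left out (adjusted p from 0.0561 to 0.254). With median-of-ratios scaling 3 genes rose and 3 fell in epididymal fat. With only the groups compared in the fit 2 rose and 4 fell there, and with DESeq2 2 rose and 3 fell, and 4 of the 6 reported calls were shared with each of these.

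**Figure D4:**
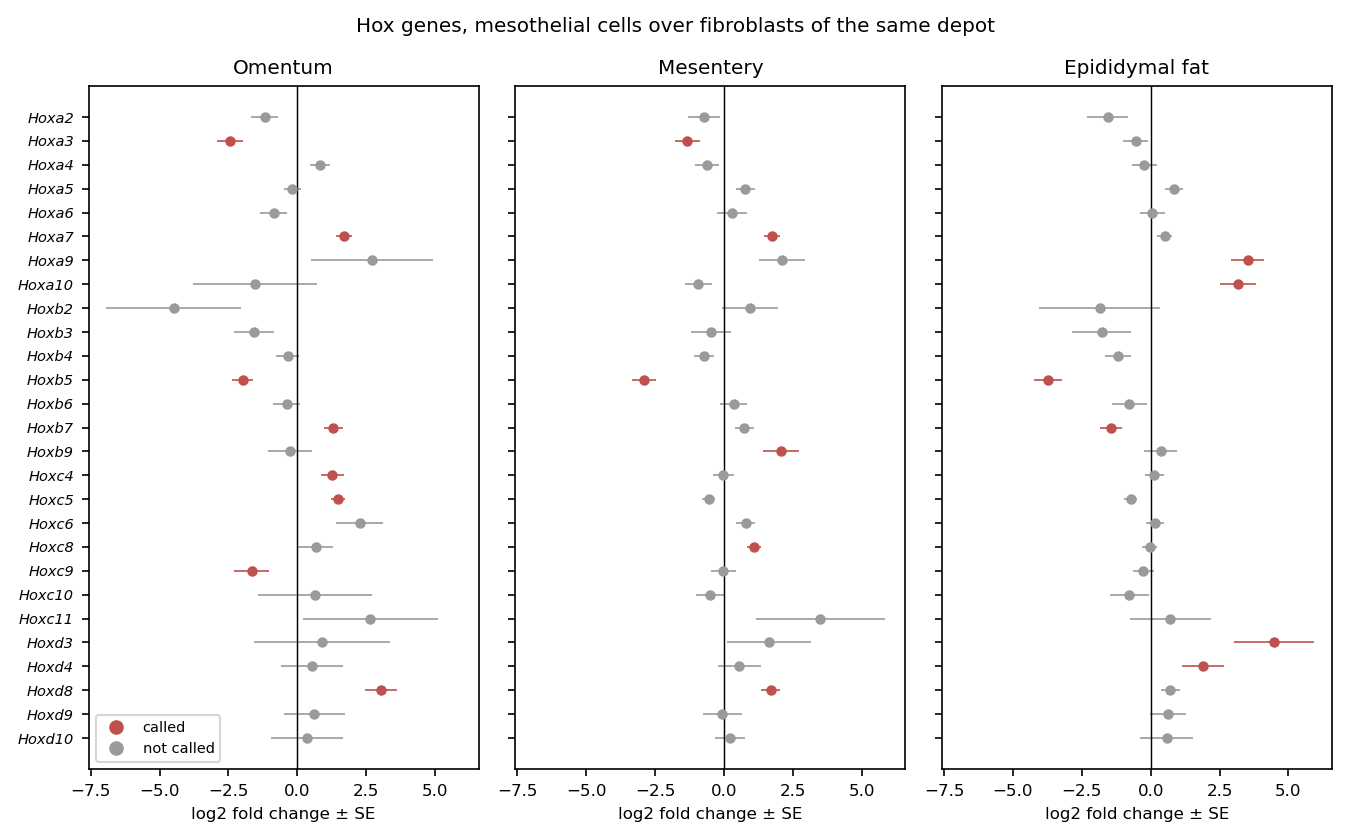
Log2 fold change (points, ± SE) of the 27 tested Hox genes in mesothelial cells over fibroblasts of the omentum, mesentery and epididymal fat, with called genes in red. Hoxb5 lies left of 0 and is called in all 3 depots, while Hoxb7 is called to the right in the omentum (1.31) and to the left in epididymal fat (-1.43).

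Whether the difference between cell types depended on the depot was tested as an interaction over the 3 depots. It was called for 4 of the 27 Hox genes tested, a share near the background of 10.9%, and the genes are given one by one. Hoxc5 was higher in mesothelial cells in the omentum, by 1.48 ± 0.26 on the log2 scale (SE, adjusted p = 3.52e-05), with 17.1, 16.9 and 16.2 CPM in mesothelial cells and 5.32, 5.12 and 7.64 CPM in fibroblasts. The same difference was -0.56 ± 0.25 for mesentery cells and -0.73 ± 0.25 for epididymal cells, and the interaction had an adjusted p of 3.95e-05. For Hoxb7 the differences were 1.31 ± 0.35 for omentum cells, 0.74 ± 0.34 for mesentery cells and -1.43 ± 0.40 for epididymal cells (interaction adjusted p = 0.00131). The omentum rise of Hoxb7 lost its call without omentum fibroblast replicate 2 (adjusted p = 0.0836). Hoxa10 rose in epididymal mesothelial cells by 3.17 ± 0.64 (adjusted p = 0.000157), with 1.62, 3.07 and 0.456 CPM in mesothelial cells and 0.248, 0.238 and 0.0618 CPM in fibroblasts, and was at -0.93 ± 0.49 in the mesentery (interaction adjusted p = 0.00161). Hoxa7 rose by 1.70 ± 0.30 in the omentum (adjusted p = 5.02e-05) and 1.74 ± 0.29 in the mesentery (adjusted p = 1.5e-05) and was at 0.51 ± 0.28 in epididymal fat. Its interaction had an adjusted p of 0.0498 and was not called in 14 of the 18 fits that each left out 1 library, nor with the replicate number as a block (adjusted p = 0.0561).

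All 9 genes of the PBX, MEIS and PKNOX families of TALE cofactors passed the filter, and 6 changed across fibroblasts of 9 tissues (background 44%) and none across mesothelial depots (background 12.3%), where 3 had an unadjusted p under 0.05 in edgeR. Meis1 averaged 112 to 254 CPM in the omentum, mesentery, epididymal, pancreas and spleen groups of both cell types and 35.9 to 55.2 CPM in lymph node, brown adipose, inguinal and bone fibroblasts. It rose in epididymal over inguinal fibroblasts by 1.75 ± 0.20 (SE, adjusted p = 7.36e-08) and fell in bone by 1.40 ± 0.16 (adjusted p = 1.43e-08). Meis2 fell in bone too, by 1.44 ± 0.17 (adjusted p = 3.68e-08), as did Pknox2, by 1.06 ± 0.22 (adjusted p = 0.000248). Pknox2 rose in lymph node over inguinal fibroblasts by 2.13 ± 0.27 (adjusted p = 1.51e-07), at 95 ± 9.3 CPM in the lymph node and 21.7 ± 7.07 CPM in inguinal fat (SD, n = 3 each). Pbx3 rose in the same comparison by 2.06 ± 0.31 (adjusted p = 4.78e-06). In inguinal over brown adipose fibroblasts, with a background of 0.704%, none of the 9 TALE genes changed in edgeR, and 1 had an unadjusted p under 0.05. In mesothelial cells Pbx4 rose against fibroblasts in all 3 depots, by 2.47 ± 0.39 for omentum cells, 1.33 ± 0.38 for mesentery cells and 1.94 ± 0.41 for epididymal cells (adjusted p = 8.45e-06, 0.00887 and 0.000354), while Pknox2 fell by 1.03 ± 0.27, 2.02 ± 0.28 and 1.60 ± 0.27 (adjusted p = 0.0043, 7.26e-07 and 1.83e-05).

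**Figure D5:**
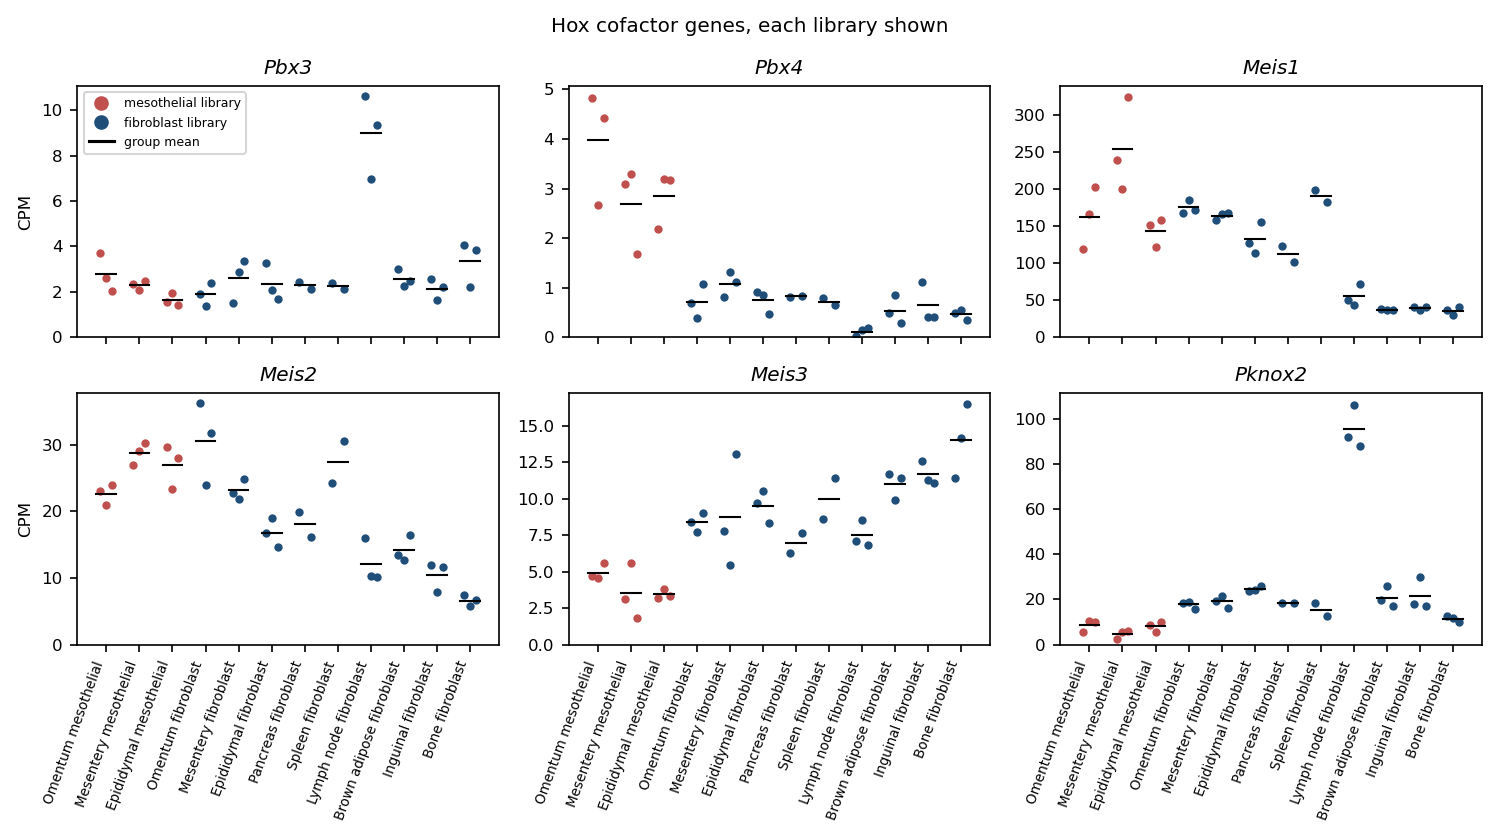
Levels of 6 TALE cofactor genes in each library (points; red mesothelial, blue fibroblast) with group means (lines), in CPM on linear axes that start at 0. Pknox2 averages 95 CPM in lymph node fibroblasts and at most 24.6 CPM elsewhere, and Meis1 averages 35.9 to 55.2 CPM in the 4 groups from lymph node to bone.

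Other genes tied to the clusters were followed as lists. Of 6 upstream regulators 3 passed the filter. Gdf11, a secreted factor that sets the trunk to tail transition in the embryo, fell in mesothelial cells against fibroblasts by 2.0 ± 0.31 for omentum, 2.69 ± 0.31 for mesentery and 3.18 ± 0.35 for epididymal cells (SE, adjusted p = 7.05e-06, 1.57e-08 and 6.59e-09), and rose in bone over the other fibroblasts by 1.52 ± 0.18 (adjusted p = 1.79e-08). Of 31 Polycomb and trithorax genes, all of which passed the filter, 13 changed across fibroblasts of 9 tissues (background 44%) and 1 across mesothelial depots (background 12.3%), and none changed in inguinal over brown adipose fibroblasts (background 0.704%), where none had an unadjusted p under 0.05 in edgeR. In bone Bmi1 rose by 2.11 ± 0.22 (adjusted p = 2.01e-09), Phc2 by 1.12 ± 0.19 (adjusted p = 9.92e-06) and Ezh2, the main H3K27 methyltransferase, by 1.30 ± 0.20 (adjusted p = 3.6e-06). Of 11 noncoding genes of the clusters 9 were tested. In bone Hoxa11os rose by 5.28 ± 0.73 (adjusted p = 5.04e-07), and Hotair, a noncoding gene inside cluster C, by 1.77 ± 0.50 (adjusted p = 0.00444) at a mean of 0.458 ± 0.408 CPM (SD, n = 3). Of 10 protein-coding genes that flank the clusters 9 were tested, and 2 changed across fibroblasts of 9 tissues (background 44%). Skap2, beside cluster A, rose in mesothelial cells of all 3 depots, by 1.51 ± 0.18, 1.60 ± 0.18 and 1.81 ± 0.18 (adjusted p = 4.06e-08, 8.5e-09 and 6.84e-10).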

How the data were processed

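RNA-seq of polyadenylated RNA from 34 libraries of sorted mouse cells was used. The deposited values are whole-number counts per gene, not normalized, described per the file headers as reads uniquely aligning to the gene model. Per the submitters' processing notes, Salmon and the build GRCm38 were used, and the version, the filters and the strand of counting are not given in the sources used here. Gene symbols, positions and exon lengths came from GENCODE annotation of GRCm38, and promoter windows from RefSeq.

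Groups follow the labels. Counts were filtered with filterByExpr (minimum count 10), scaled with TMM and fitted in 1 edgeR 4.0.16 quasi-likelihood model with a term for each of the 12 groups (R 4.3.3), and p-values were adjusted by the Benjamini-Hochberg method over 25705 genes in each of 19 comparisons. SE is the size of the log2 fold change over the square root of F. In tests over several groups, the size is the range of the fitted group means, or of the 3 depot effects in the interaction. A fold against a group with no count uses a floor of 3 counts over the group. Ratios and floors cover counting error only. Replicate libraries differed beyond sampling noise, with no copies. All Hox genes could be named, and those described were the called genes of smallest adjusted p with at least 1 CPM in the higher group. Of the other lists up to 4 called genes per comparison could be named. Further genes are named where they complete a count, chosen after their values were seen. The Hox genes and all lists were chosen with earlier results of these data known. The test was tried on simulated counts. Alternatives were median-of-ratios scaling, unscaled totals, no filter, only the groups compared, DESeq2 1.42.0, the replicate number as a block, leaving out each library, leaving out libraries of at least 1000 CPM of acinar markers, and detection at 0.5 or 2 CPM. Values of some genes of the other lists are not reported here.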

Additional observations from a re-analysis of the deposited data

Results flagged for a closer look

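By the edgeR interaction test, the difference between mesothelial cells and fibroblasts varied between the 3 depots for 4 of the 27 Hox genes tested. The depots were the omentum, mesentery and epididymal fat. This share was near the background of 10.9% of all genes tested. The log2 fold changes of Hoxa10 in the 3 depots spanned 4.7 (adjusted p = 0.00161), those of Hoxb7 spanned 2.74 (adjusted p = 0.00131) and those of Hoxc5 spanned 2.2 (adjusted p = 3.95e-05). Those of Hoxa7 spanned 1.23 (adjusted p = 0.0498), and leaving out 1 library ended that call in 14 of 18 fits. Hoxa10 had only 1 count over the omentum mesothelial libraries, and its omentum effect had an SE of 2.26.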

How the results depend on the processing

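Counts of called Hox genes stayed within 1.5 times of the reported count in most alternatives. The exceptions were as follows. Without libraries of at least 1000 acinar CPM, 5 genes were called in omentum over mesentery mesothelial cells in place of 11, 1 in mesentery over epididymal mesothelial cells in place of 3, and 1 in mesentery over epididymal fibroblasts in place of 3. With no filter on low counts, 11 were called in inguinal over brown adipose fibroblasts in place of 7, 9 in pancreas over mesentery fibroblasts in place of 5, and 1 in spleen fibroblasts in place of 2. With only the groups compared in the fit, 7 were called in lymph node over inguinal fibroblasts in place of 11. The cause was not tested. No called gene changed sign. The split of calls in epididymal mesothelial over fibroblast cells moved from 4 higher and 2 lower to 2 and 4 with only the groups compared and to 2 and 3 with DESeq2, and that in spleen fibroblasts from 1 and 1 to 0 and 2 with DESeq2. Leaving out 1 library gave 26 to 27 called genes across all groups, 24 to 27 across fibroblasts, 12 to 14 across mesothelial depots and 3 to 5 in the interaction. For mesothelial over fibroblast cells the range was 6 to 9 for omentum, 4 to 7 for mesentery and 4 to 7 for epididymal cells. Between mesothelial depots it was 6 to 10 for omentum over mesentery, with 6 without omentum replicate 1, 10 to 13 for omentum over epididymal fat, and 1 to 3 for mesentery over epididymal fat, with 1 without epididymal replicate 2. Between fibroblasts it was 8 to 10 for omentum over mesentery and over epididymal fat, 2 to 3 for mesentery over epididymal fat, 6 to 8 for inguinal over brown adipose, 8 to 9 for epididymal over inguinal, 8 to 12 for lymph node over inguinal, 5 to 6 for pancreas over mesentery, 12 to 18 for bone, and 0 to 2 for spleen, with 0 without spleen replicate 1 and 1 without spleen replicate 2, where the lone spleen library is assumed to vary like the other groups. Of the called gene results, DESeq2 kept 175 and lost 9, and median-of-ratios scaling kept 188 and lost 1. The DESeq2 counts leave out called results for which DESeq2 gave no adjusted p, and those were not kept either. Correlations of same-numbered libraries ran from -0.249 to 0.374. With 2 or 3 libraries per group, these values cannot decide whether replicate numbers pair the samples. With the replicate block 184 calls were kept and 5 lost, and the interaction had 3 called genes. Unscaled totals moved 23 of 456 group levels by more than 1 SD. Comparisons with omentum or pancreas fibroblasts could not be run without the libraries of high acinar CPM, since none would remain. Genes under about 1 CPM rest on few counts, which limits their calls.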
